A study of Rattus norvegicus with 31 samples.

Results

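Loss of Ucp1 was compared with the control genotype in the gastrocnemius of rats kept in the cold, using the 16 libraries of the 8 Ucp1 knockout and 8 control animals out of 31 libraries in the series. The members were taken from the labels alone, as every library labelled cold with either genotype, and all genes were considered: 10082 of 11289 listed genes had enough counts to be tested. All animals were female Sprague Dawley rats, 7 months old and fed chow, and 1 library was made from the muscle of each. The control in the cold and the knockout in the cold were held at 4 °C for 14 days. The remaining groups, 8 controls and 7 knockouts kept at room temperature for 14 days, entered the same model and gave the room temperature values set beside the cold ones. The sources used here do not give the mutant allele or say whether the genotypes were littermates. Ucp1 itself is not analysed here, so the genotype of each library rests on its label. Animals are called by the number in their label, 16 to 23 for cold controls and 24 to 31 for cold knockouts.

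Ucp1 is a carrier of the inner mitochondrial membrane that lets protons return without making ATP, and it is the means by which brown fat produces heat. In a rat without it, heat in the cold must come from elsewhere, and skeletal muscle is the main other source, through shivering and through calcium pumping by the sarcoplasmic reticulum. Gastrocnemius is a mixed calf muscle of mostly fast fibres that hardly expresses Ucp1. The comparison therefore asks how the muscle transcriptome differed between cold-exposed animals with and without this protein.

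The libraries are 3′ tag libraries, in which reads start near the end of a polyadenylated transcript, and levels are given in CPM, the counts of a gene scaled to a common library total after TMM adjustment. Cold controls held 8030301 to 10942973 counts and cold knockouts 7606108 to 11859690, a difference in means of 0.947 M (M for mega; exact two-sided permutation test, p = 0.156, n = 8 and 8). Transcripts of the mitochondrial genome took 10.3 ± 0.989% of counts in controls and 9.43 ± 1.59% in knockouts (SD, n = 8 each), and this difference of -0.907 percentage points was within the spread of animals (exact two-sided permutation test, p = 0.187). Fast fibre genes summed to 138445 to 229388 CPM in cold controls and 94587 to 192595 CPM in cold knockouts. Such sums fit muscle rich in fast fibres but cannot tell gastrocnemius from other such muscles. A principal component analysis over the 31 libraries gave a first axis with 35.3% of the variance that did not follow the groups. Its lowest scores belonged to 7 libraries from all 4 groups, among them cold controls 17 and 23 and cold knockouts 25 and 28. In whole muscle, fewer cells of a type and less RNA per cell cannot be told apart.

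A single gene, the neurotrophin Ntf4, differed between the cold genotypes at an adjusted p under 0.05, which is 0.00992% of genes tested (edgeR quasi-likelihood test, Benjamini-Hochberg over 10082 genes). It was lower in the knockout. The unadjusted p was under 0.05 for 633 genes, or 6.28% of those tested, against 504 for evenly spread p-values; 313 were higher in the knockout (3.10%) and 320 were lower (3.17%). The next 3 genes by p were Bhlhe41, Hmox1 and Thrsp, all at an adjusted p of 0.0906, and 4 genes in all lay under 0.1. They were called together with Ntf4 by DESeq2 (6 genes, 0.0595%), with the first principal axis as a covariate (8 genes, 0.0793%) and without room temperature controls 1 and 2 (4 genes, 0.0394%). Tigd4, a gene of transposon origin, was the single call of limma voom (0.00992%). The median difference over all genes was 0.037 on the log2 scale, and 5775 genes had a positive sign. Complete separation of the cold groups, with every knockout below every control, occurred for 1 gene (0.00992%) and the opposite for 0 genes. That gene is listed as ENSRNOG00000054557 without a symbol and was singled out after its values were seen: 1.18, 1.70 and 2.97 CPM (lowest, median, highest) in controls against 0.402, 0.886 and 0.977 CPM in knockouts, with an adjusted p of 0.576.

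**Figure D1:**
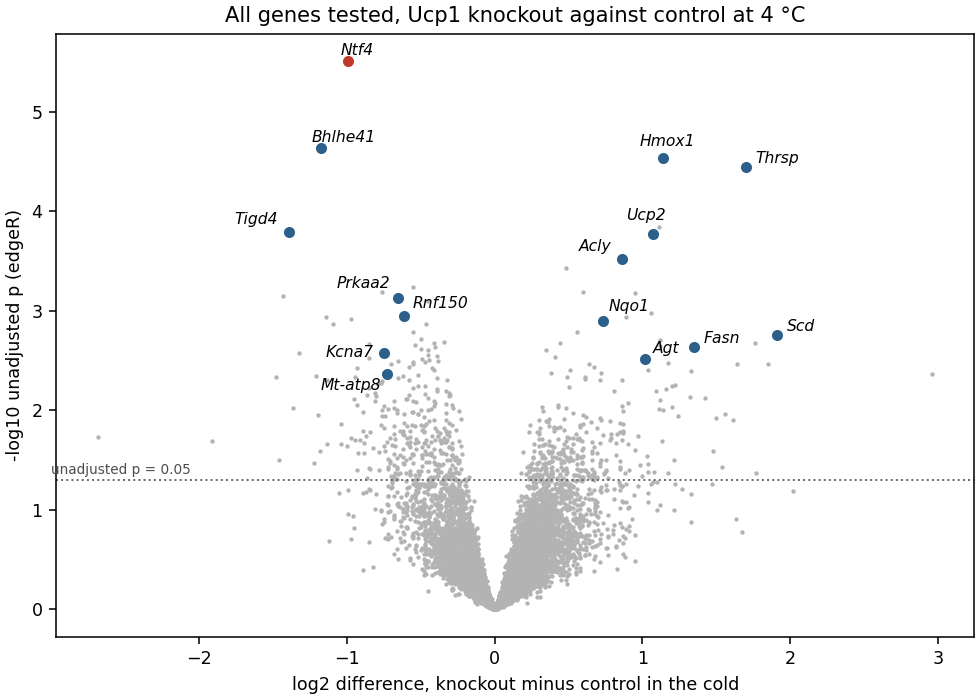
Each point is 1 of 10082 genes tested in the 16 cold animals, with the log2 difference (knockout minus control) on the horizontal axis and the -log10 of the unadjusted edgeR p on the vertical axis. Ntf4 (red) is the gene with an adjusted p under 0.05; blue points are other named genes, which did not pass.

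Ntf4 encodes neurotrophin-4, a ligand of the TrkB receptor that muscle fibres make and that acts on motor neurons. In controls its level was 2.08 CPM at the lowest, 3.06 at the median and 4.50 at the highest; in knockouts these were 1.30, 1.58 and 2.11 CPM. All knockouts but animal 24 were below the lowest control, so the groups overlapped by 1 animal on each side. Ntf4 fell by 0.99 on the log2 scale (SE 0.17), which is 1.98-fold lower, with an adjusted p of 0.0310. The values rest on few reads: between 19 and 38 counts per library in controls and between 12 and 21 in knockouts. The sign was negative under each alternative analysis that kept Ntf4, but the call was not always made. With each cold library left out in turn, the difference ran from -1.06 to -0.90 and the adjusted p from 0.00929 to 0.179, and the call stood in 8 of 16 omissions. It was lost without control 17, 19, 20 or 23 or without knockout 25, 26, 29 or 30. A fit to the 16 cold libraries alone gave an adjusted p of 0.21, and leaving out the 7 libraries with the lowest scores on the first principal axis gave -0.90 and 0.256.

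In the animals kept at room temperature the knockout difference of Ntf4 was -0.22 on the log2 scale (unadjusted p = 0.212), and the interaction, the cold difference minus the room temperature difference, was -0.77 (unadjusted p = 0.00382, adjusted p = 0.486). Bdnf, the other TrkB ligand measured here, had the opposite sign in the cold. Its level was 0.220, 0.741 and 1.73 CPM in controls and 0.920, 1.77 and 3.47 CPM in knockouts, a difference of 1.17 ± 0.37 (SE) with an adjusted p of 0.576. Kcna7, a voltage-gated potassium channel, is the coding gene next to Ntf4 in the RefSeq order of assembly GRCr8. It had 7.37, 10.9 and 15.3 CPM in controls and 3.30, 6.46 and 11.6 CPM in knockouts, a difference of -0.75 ± 0.23 (adjusted p = 0.576), and 5 of 8 knockouts were below every control. Ruvbl2, on the other side of Ntf4 among the tested genes, differed by -0.078 ± 0.12. The sources used here do not say whether counting used the strand, so reads of neighbouring genes that overlap could be counted together.

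**Figure D2:**
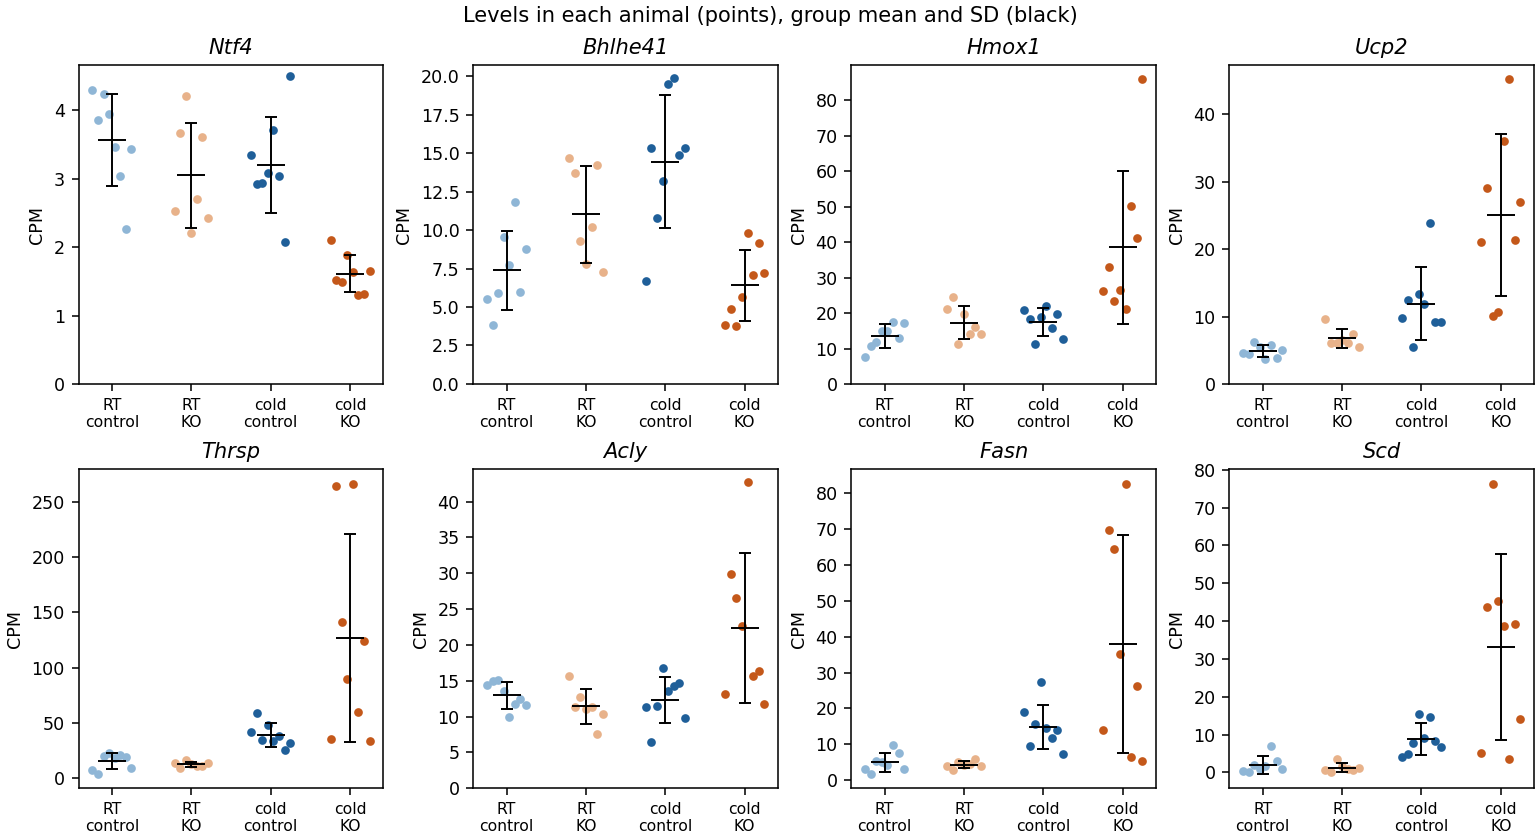
CPM of 8 genes in each animal (points) of the 4 groups on the horizontal axis, with the group mean and SD in black. Ntf4 and Bhlhe41 are lower in most cold knockouts than in cold controls, and Thrsp, Acly, Fasn and Scd spread more widely among cold knockouts than in any other group shown.

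Promoter windows of the genes with the strongest differences are shown to give their sequence context: 250 bases before and 50 bases after the annotated start, 5′ to 3′ on the gene's strand, from RefSeq with assembly GRCr8. Ntf4 is at chr1:105029785-105030084 (+), Bhlhe41 at chr4:180569306-180569605 (-), Thrsp at chr1:161138915-161139214 (-) and Acly at chr10:85963582-85963881 (-). Capitals mark a CCAAT box, which reads as ATTGG when it lies on the other strand, and, in the Bhlhe41 window, also an E-box with the letters CACGTG.
Ntf4: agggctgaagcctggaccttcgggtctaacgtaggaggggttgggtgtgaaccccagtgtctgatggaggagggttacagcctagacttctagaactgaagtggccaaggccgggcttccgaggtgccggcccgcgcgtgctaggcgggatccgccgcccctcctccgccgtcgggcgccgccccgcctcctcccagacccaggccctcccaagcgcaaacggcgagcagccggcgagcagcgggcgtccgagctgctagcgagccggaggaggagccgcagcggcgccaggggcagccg
Bhlhe41: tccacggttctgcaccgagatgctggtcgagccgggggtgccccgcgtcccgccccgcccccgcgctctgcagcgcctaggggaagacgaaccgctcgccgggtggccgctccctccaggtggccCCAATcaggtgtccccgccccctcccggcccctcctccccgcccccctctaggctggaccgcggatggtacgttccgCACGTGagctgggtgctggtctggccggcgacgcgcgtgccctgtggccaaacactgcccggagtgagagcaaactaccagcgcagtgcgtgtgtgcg
Thrsp: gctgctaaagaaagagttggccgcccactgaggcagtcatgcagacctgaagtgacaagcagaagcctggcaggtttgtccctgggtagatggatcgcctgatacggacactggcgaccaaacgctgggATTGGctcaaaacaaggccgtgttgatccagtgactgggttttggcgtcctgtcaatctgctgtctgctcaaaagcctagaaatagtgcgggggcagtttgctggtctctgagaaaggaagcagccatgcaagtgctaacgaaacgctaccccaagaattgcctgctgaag
Acly: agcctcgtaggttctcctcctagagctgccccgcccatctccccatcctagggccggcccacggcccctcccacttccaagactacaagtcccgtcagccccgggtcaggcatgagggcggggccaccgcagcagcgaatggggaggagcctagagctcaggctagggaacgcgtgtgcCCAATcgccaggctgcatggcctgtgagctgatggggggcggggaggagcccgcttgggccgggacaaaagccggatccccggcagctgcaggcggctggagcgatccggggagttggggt
Each window was searched on both strands for 5 motifs: the E-box just given, the CCAAT box, the TATA box with the letters TATAAA, the core of the antioxidant response element with the letters TGACNNNGC, and the thyroid response half-site with the letters AGGTCA. Of the 7 windows searched (these 4, Scd, Ucp2 and Nqo1), 4 held CCAAT, against 37.5% of 33469 promoters. The E-box was in the Bhlhe41 window, 48 bases before the start, and in 6.42% of all promoters. The Ntf4 window held none of these words, which says only that the letters are not in this window. Hmox1 and Fasn had no entry.

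Bhlhe41, a transcriptional repressor of the circadian network also called DEC2, was lower in the cold knockout without passing the threshold. Controls had 6.70, 15.1 and 19.9 CPM (lowest, median, highest) and knockouts 3.76, 6.36 and 9.81 CPM. In 4 of 8 knockouts the level was below the lowest control, which was animal 16, and 7 of 8 controls were above the highest knockout. The difference was -1.17 ± 0.24 on the log2 scale (2.25-fold lower, adjusted p = 0.0906). At room temperature the knockout was higher, by 0.58 (unadjusted p = 0.0237), and of all genes tested Bhlhe41 had the smallest interaction p: -1.75 ± 0.34, unadjusted p = 1.24e-05, adjusted p = 0.125. DESeq2 called it for that interaction, as did limma voom.

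The other clock genes did not share 1 direction. Of 16 tested members of the circadian list, 1 was higher and 4 were lower at an unadjusted p under 0.05, with a median of 0.018. These are 31.2% of the list, beside 6.28% of all genes. This list and those below were chosen with earlier results of these data known, so their shares describe the members and do not test enrichment. Nr1d1, encoding the repressor REV-ERB alpha, had 30.4, 42.7 and 50.7 CPM in controls and 18, 30.5 and 36.5 CPM in knockouts (-0.57 ± 0.22, adjusted p = 0.726). Its paralog Nr1d2 differed by -0.29 ± 0.12 and the period gene Per3 by -0.59 ± 0.24, while the repressor Nfil3 was higher by 0.87 ± 0.35. The core activators Clock and Arntl differed by -0.0031 and 0.48, and Bhlhe40, the paralog of Bhlhe41, by 0.040 ± 0.25. The sources used here do not give the hour at which muscles were taken.

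Hmox1, which encodes the inducible heme oxygenase that breaks heme down, was higher in the cold knockout. Its level was 11.4, 18.6 and 22.1 CPM in controls and 21.2, 29.8 and 86.0 CPM in knockouts. All knockouts but animal 28 were above the highest control. The difference was 1.14 ± 0.23 on the log2 scale (2.2-fold, adjusted p = 0.0906). Without knockout 31, which held the highest value, it was 0.84 with an adjusted p of 0.307. At room temperature the difference was 0.36 (unadjusted p = 0.145), and the interaction was 0.78 (unadjusted p = 0.0274).

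Other antioxidant genes leaned the same way, with differing weight on single animals. Of 18 tested members of the antioxidant list, 4 were higher and 0 lower at an unadjusted p under 0.05, beside 3.10% and 3.17% of all genes; the list median was 0.18. Nqo1, a quinone reductase, had 22, 27.4 and 46.1 CPM in controls and 42.1, 47.5 and 74.1 CPM in knockouts, and 5 of 8 knockouts were above every control (0.73 ± 0.21, adjusted p = 0.575). Nqo1 was also higher in the knockout at room temperature, by 0.74 (unadjusted p = 0.00172), so its interaction was near 0, at -0.0037. Hmox1 and Nqo1 are on the same chromosome as Ucp1 in assembly GRCr8. The metallothionein Mt2A had 1.69, 4.45 and 6.79 CPM in controls and 1.63, 7.88 and 48.9 CPM in knockouts (1.64 ± 0.52, adjusted p = 0.576), and 0.97 without knockout 31. Glutathione peroxidase Gpx1 differed by 0.31 ± 0.15, and Nfe2l2, the transcription factor that drives many genes of this group, by 0.17.

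The largest differences among the fixed metabolic genes were in de novo lipogenesis, the making of fatty acids from citrate. Of 13 tested members, 5 were higher and 0 lower at an unadjusted p under 0.05, beside 3.10% and 3.17% of all genes. The list median was 0.37 in the cold, where that of all genes was 0.037, and -0.19 at room temperature. Of the members, 0 passed the adjusted threshold in edgeR. Thrsp, a nuclear protein that promotes lipogenic gene expression and responds to thyroid hormone, had 25.3, 36.2 and 59.0 CPM in controls and 33.5, 107 and 266 CPM in knockouts. Knockouts 25 and 28 were at 264 and 266 CPM, while knockouts 24 and 31 were within the control range. The difference was 1.70 ± 0.35 (3.25-fold, adjusted p = 0.0906), and the interaction 1.97 (unadjusted p = 5.28e-04).

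The enzymes were high in 4 of the same animals, knockouts 25, 26, 27 and 28, and low in knockouts 24, 29 and 31, save that Scd was also high in knockout 30. Acly, which cleaves citrate to cytosolic acetyl-CoA, had 6.38, 12.6 and 16.8 CPM in controls and 11.8, 19.5 and 42.7 CPM in knockouts (0.86 ± 0.21, adjusted p = 0.377). Fatty acid synthase, Fasn, had 7.17, 14.2 and 27.3 CPM in controls and 5.29, 30.6 and 82.7 CPM in knockouts (1.35 ± 0.41, adjusted p = 0.576). The desaturase Scd had 4.13, 7.99 and 15.5 CPM in controls and 3.47, 39.0 and 76.3 CPM in knockouts (1.91 ± 0.56, adjusted p = 0.576). Knockout ranges spanned and exceeded the control ranges for Fasn and Scd, while no knockout was below the lowest control for Acly: 2 of 8 knockouts were below every control for Fasn and 1 of 8 for Scd, while 4 and 5 were above every control. Slc25a1, the mitochondrial citrate carrier, differed by 0.86 ± 0.35, whereas the transcription factor Srebf1 differed by 0.11 ± 0.34, malic enzyme Me1 by -0.10 ± 0.12 and acetyl-CoA carboxylase Acacb by -0.10 ± 0.17.

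Within the cold knockouts, Thrsp and Acly were ordered alike from animal to animal. Their log2 levels had Pearson's r = 0.917 (exact permutation p = 0.00151, adjusted over 22 relations 0.0333) and Spearman's rho = 0.976 (exact permutation p = 3.97e-04, adjusted 0.00873) over n = 8 animals, and r was 0.84 without the 2 animals farthest from the median of Thrsp. For Fasn, r was 0.893 (exact permutation p = 0.00461, adjusted 0.0507), rho was 0.952 (exact permutation p = 0.00114, adjusted 0.0125), and r was 0.877 without the 2 farthest. Scd gave r = 0.727 (exact permutation p = 0.0486, adjusted 0.356), rho = 0.548 (p = 0.171, adjusted 0.627) and 0.625 without the 2 farthest. Among the 8 cold controls Thrsp and Acly had r = -0.481 (exact permutation p = 0.228, adjusted 0.714) and rho = -0.19 (p = 0.665, adjusted 0.969), and r was 0.659 without the 2 farthest; whether the groups differ in this respect was not tested.

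Library scores and fat cell markers are given beside the lipogenic genes. Knockouts 25 and 28, the highest in Thrsp, are among the 7 libraries with the lowest scores on the first principal axis. Without those 7 libraries the difference was 1.13 for Thrsp, 0.38 for Acly, 0.57 for Fasn and 1.63 for Scd, and the adjusted p of Thrsp was 0.36. White adipocyte markers were also higher in the knockout: 12 of 13 tested had a positive sign, beside 57.3% of all genes. At an unadjusted p under 0.05 in edgeR, 6 were higher and 0 lower, beside 3.10% and 3.17% of all genes. The 14 listed markers summed to 1095 to 1403 CPM in controls and 1242 to 2317 CPM in knockouts. Much of that sum was Lpl, with means of 645 CPM in controls and 824 CPM in knockouts. Lpl is also in the list of fatty acid uptake and oxidation. None of the 13 tested adipocyte markers was at 0 in any cold library. Thrsp and Adipoq had r = 0.625 in cold knockouts (exact permutation p = 0.1, adjusted 0.551), rho = 0.595 (p = 0.132, adjusted 0.582) and r = 0.312 without the 2 farthest. Lep, a marker of low level, ran from 0.402 to 4.69 CPM in cold knockouts. The part of fat tissue in the lipogenic differences was not tested.

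**Figure D3:**
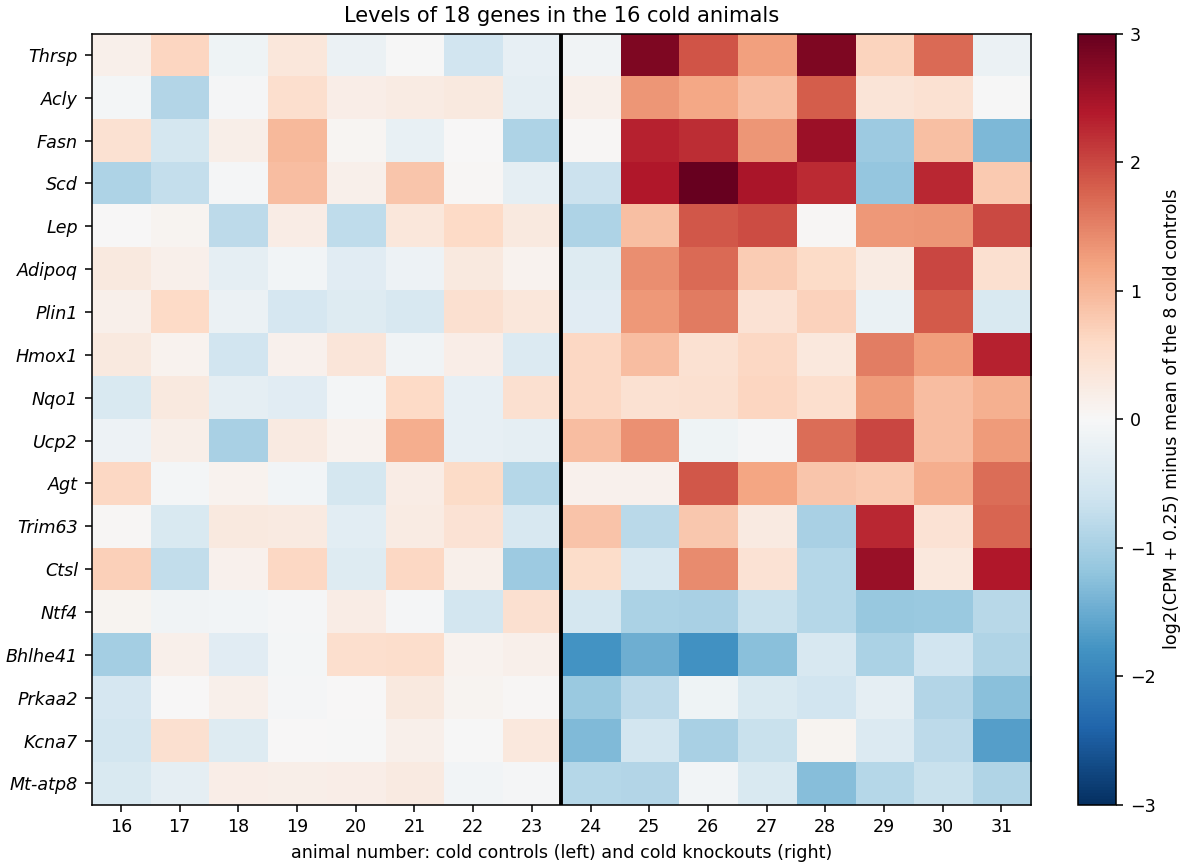
Log2(CPM + 0.25) of 18 genes (rows) in each of the 16 cold animals (columns), as the difference from the mean of the 8 cold controls; red is higher, blue is lower. Knockouts 25 and 28 are highest for Thrsp and Acly, while knockouts 29 and 31 are highest for Trim63, Ctsl and Hmox1.

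Adipoq, the hormone adiponectin of fat cells, had 18.3, 23.5 and 28.6 CPM in controls and 17.7, 37.2 and 94.2 CPM in knockouts (1.03 ± 0.45, adjusted p = 0.757). Leptin, Lep, had 0.471, 1.14 and 1.64 CPM in controls and 0.402, 2.85 and 4.69 CPM in knockouts (1.42 ± 0.50, adjusted p = 0.661). For both, 6 of 8 knockouts were above and 1 was below every control. Resistin, Retn, differed by 1.04 ± 0.49 and the lipid droplet protein Plin1 by 0.81 ± 0.42. In the other lipid lists no member passed the adjusted threshold: of 12 triglyceride synthesis genes and 15 cholesterol synthesis genes, 0 were at an unadjusted p under 0.05 in edgeR, with medians of 0.10 and 0.061. Among 26 genes of fatty acid uptake and oxidation, lipoprotein lipase Lpl was at an unadjusted p under 0.05 (0.35 ± 0.17). That is 3.85% of the list, beside 6.28% of all genes. Cpt1b, the gate of mitochondrial fatty acid import in muscle, differed by 0.13 with a 95% interval of -0.18 to 0.45. The median of that list was 0.14 in the cold and 0.22 at room temperature.

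Of the carriers related to Ucp1, Ucp2 was higher in the cold knockout. Ucp2, an inner-membrane carrier found in many cell types, had 5.53, 10.9 and 23.8 CPM in controls and 10.1, 24.1 and 45.2 CPM in knockouts. In 4 of 8 knockouts it was above the highest control, animal 21, and in no knockout was it below the lowest control. The difference was 1.07 ± 0.25 (2.10-fold, adjusted p = 0.242); with each cold library left out in turn it ran from 0.87 to 1.29 and the adjusted p from 0.0362 to 0.662, with a call in 1 of 16 omissions, that of control 21. Ucp3, the muscle homolog, had 54.0, 118 and 202 CPM in controls and 69.0, 146 and 279 CPM in knockouts (0.37, 95% interval -0.28 to 1.02). Across 11 tested genes of uncoupling and creatine cycling the median was -0.059.

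Among calcium handling genes, the largest difference was in Sln and did not pass. Sln encodes sarcolipin, a small protein that uncouples the calcium pump of the sarcoplasmic reticulum from transport. Its level was 1.86, 18.2 and 91.5 CPM in controls and 14.6, 63.0 and 111 CPM in knockouts, so that 3 of 8 controls were below every knockout and 1 of 8 knockouts was above every control, while the rest overlapped. The difference of 1.06 ± 0.53 had a 95% interval of -0.034 to 2.15 and an unadjusted p of 0.0554. The slow pump Atp2a2 differed by -0.11 (95% interval -0.48 to 0.26) and the calcium release channel Ryr1 by -0.36 (95% interval -0.80 to 0.072). None of 23 tested members of the calcium cycling list was at an unadjusted p under 0.05 in edgeR, and the list median was -0.11.

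Several regulators of energy metabolism were lower in the cold knockout, again without passing the threshold. Prkaa2, the catalytic subunit of AMP-activated kinase that prevails in muscle, had 20.1, 29 and 35.1 CPM in controls and 12, 18.1 and 26.4 CPM in knockouts. In 5 of 8 knockouts it was below the lowest control, and the difference was -0.65 ± 0.18 (adjusted p = 0.498). At room temperature the sign was opposite, 0.25, with an interaction of -0.91 (unadjusted p = 0.00104). Mss51, a mitochondrial protein of fast muscle, had 126, 172 and 228 CPM in controls and 27.4, 111 and 184 CPM in knockouts (-0.65 ± 0.21, adjusted p = 0.576). The corepressor Lcor differed by -0.55 ± 0.20 and Med13, a Mediator subunit, by -0.55 ± 0.20. These were the 4 of 21 oxidative metabolism regulators at an unadjusted p under 0.05, or 19% of the list, beside 6.28% of all genes. At room temperature 2 members were higher and 2 lower at that level. The list median in the cold was -0.076. Ppargc1a, the coactivator of mitochondrial biogenesis, differed by -0.23 (95% interval -0.87 to 0.41), and Pdk4, which curbs pyruvate oxidation, by 0.37 (95% interval -0.50 to 1.25).

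Respiratory chain genes of the nucleus showed no member at an unadjusted p under 0.05 in edgeR, among 36 complex I subunits (median -0.042) and 42 subunits of complexes II to V (median -0.051). Transcripts of the mitochondrial genome had a negative sign in 12 of 12, with a median of -0.21, beside 57.3% positive over all genes. At room temperature 8 of these 12 were negative and their median was -0.07. In the cold, the one at an unadjusted p under 0.05 was Mt-atp8, a subunit of ATP synthase (8.33% of the list, beside 6.28% of all genes). It had 901, 1299.8 and 1497 CPM in controls and 514, 684 and 1174 CPM in knockouts (-0.73 ± 0.24, adjusted p = 0.576). The other 11 lay between -0.31 and -0.11, among them Mt-atp6, also a subunit of ATP synthase, at -0.19 ± 0.15. These transcripts share 1 precursor RNA in each direction, so they are not separate witnesses. Glycolysis and glycogen genes had a median of -0.14 over 23 tested.

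Contractile genes of fast fibres were slightly lower in the knockout. At an unadjusted p under 0.05, 3 of 14 tested were lower, beside 3.17% of all genes. A negative sign was found in 14 of 14, beside 57.3% positive over all genes, and the median was -0.20. At room temperature the median was -0.27. The highest of them is an identifier that 1 column of the deposited table names Myh4 and another Myh1, 2 fast myosin heavy chains whose reads may be shared. It had 30658, 34665 and 41721 CPM in controls and 16162, 25225 and 35155 CPM in knockouts (-0.45 ± 0.14, adjusted p = 0.576), and 6 of 8 knockouts were below every control. Myoz1, a Z-disc protein, differed by -0.31 ± 0.13 in the cold and -0.32 at room temperature. Slow fibre genes had a median of -0.017 over 15 tested, and the slow myosin Myh7 differed by -0.15 (95% interval -0.47 to 0.16). The embryonic myosin Myh3 differed by -0.028 (95% interval -0.83 to 0.77) and changed sign under alternative analyses.

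Ion channels and markers of denervated or developing muscle held members at an unadjusted p under 0.05 on opposite sides, and none passed the adjusted threshold. Of 16 tested ion channel genes, 4 were lower and 0 higher at an unadjusted p under 0.05, beside 3.17% and 3.10% of all genes. At room temperature 2 were lower and 0 higher. The 4 lower in the cold were Kcna7, the potassium channel Kcnc1 (-0.67 ± 0.28), Abcc9, a subunit of ATP-sensitive potassium channels (-0.24 ± 0.089), and Trpm7 (-0.60 ± 0.29). Of 17 tested denervation and development genes, 6 were higher and 0 lower at that level, beside 3.10% and 3.17% of all genes; 11 of 17 had a positive sign, and the median was 0.16. At room temperature 3 were higher and 1 lower. Runx1, a transcription factor induced by denervation, had 10.6, 16.1 and 30.8 CPM in controls and 15.9, 26 and 42 CPM in knockouts (0.61 ± 0.20, adjusted p = 0.576). It differed by 0.56 at room temperature as well. The acetylcholine receptor subunit Chrnd differed by 0.56 ± 0.26, the cell cycle inhibitor Cdkn1a by 0.85 ± 0.32, Gadd45a by 0.86 ± 0.31 and the myogenic factor Myf6 by 0.69 ± 0.27. Other markers were nearer 0 or negative: the receptor subunits Chrna1 and Chrne differed by 0.027 and -0.16, the myogenic factor Myog by 0.16, the adhesion molecule Ncam1 by -0.0061 and the perinatal myosin Myh8 by -0.63. Sspn, a sarcolemmal protein and the coding gene next to Bhlhe41 in the GRCr8 order, differed by -0.47 ± 0.15.

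Of the protein breakdown genes, Trim63, Ctsl and Psmd8 had their highest levels in knockouts 29 and 31, and no member of these lists passed the adjusted threshold. Trim63, the muscle ubiquitin ligase MuRF1, had 202, 309 and 378 CPM in controls and 143, 437 and 1346 CPM in knockouts (0.90 ± 0.32, adjusted p = 0.682). Knockouts 29 and 31 were at 1346 and 943 CPM, while knockouts 25 and 28 were below every control. Without knockout 29 the difference was 0.54. The lysosomal protease Ctsl had 25.7, 60.9 and 89.8 CPM in controls and 30.5, 77.6 and 333 CPM in knockouts, with 333 and 290.2 CPM in the same 2 animals (1.14 ± 0.42, adjusted p = 0.682). Of 20 atrophy and autophagy genes, 5 were higher and 0 lower at an unadjusted p under 0.05, beside 3.10% and 3.17% of all genes. The median of that list was 0.23. The ubiquitin ligase Fbxo32 differed by 0.023 and the autophagy genes Map1lc3b and Becn1 by 0.16 and 0.076. Proteasome subunits had a positive sign in 33 of 36, a median of 0.16 and 2 members at an unadjusted p under 0.05, Psmd8 (0.50 ± 0.20) and Psmd3 (0.31 ± 0.13). These are 5.56% of the subunits, beside 6.28% of all genes, and 57.3% of all genes had a positive sign. Psmd8 was at 441 and 387 CPM in knockouts 29 and 31, against at most 217 CPM in the other knockouts.

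Immediate early genes, which respond to contraction and to handling of tissue, had a positive sign in 15 of 15, with a median of 0.45 in the cold and -0.13 at room temperature, beside 57.3% positive over all genes in the cold. Jund (0.35 ± 0.16) and Junb (0.77 ± 0.37) were at an unadjusted p under 0.05, which is 13.3% of the list beside 6.28% of all genes. Junb had 7.31, 23.3 and 27.6 CPM in controls and 6.13, 28 and 89.2 CPM in knockouts. With each cold library left out in turn, Junb ran from 0.37 to 0.93 and Jund from 0.27 to 0.42. Fos differed by 0.85, Egr1 by 0.21 and Jun by 0.014. Among 20 heat shock genes the small chaperones Hspb8 (0.48 ± 0.17) and Hspb1 (0.37 ± 0.14) were at an unadjusted p under 0.05. They are 10% of the list, beside 6.28% of all genes, and the list median was 0.18. Hspb8 had 1147, 1293 and 1834 CPM in controls and 1203, 1959 and 2562 CPM in knockouts, and 6 of 8 knockouts were above every control.

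**Figure D4:**
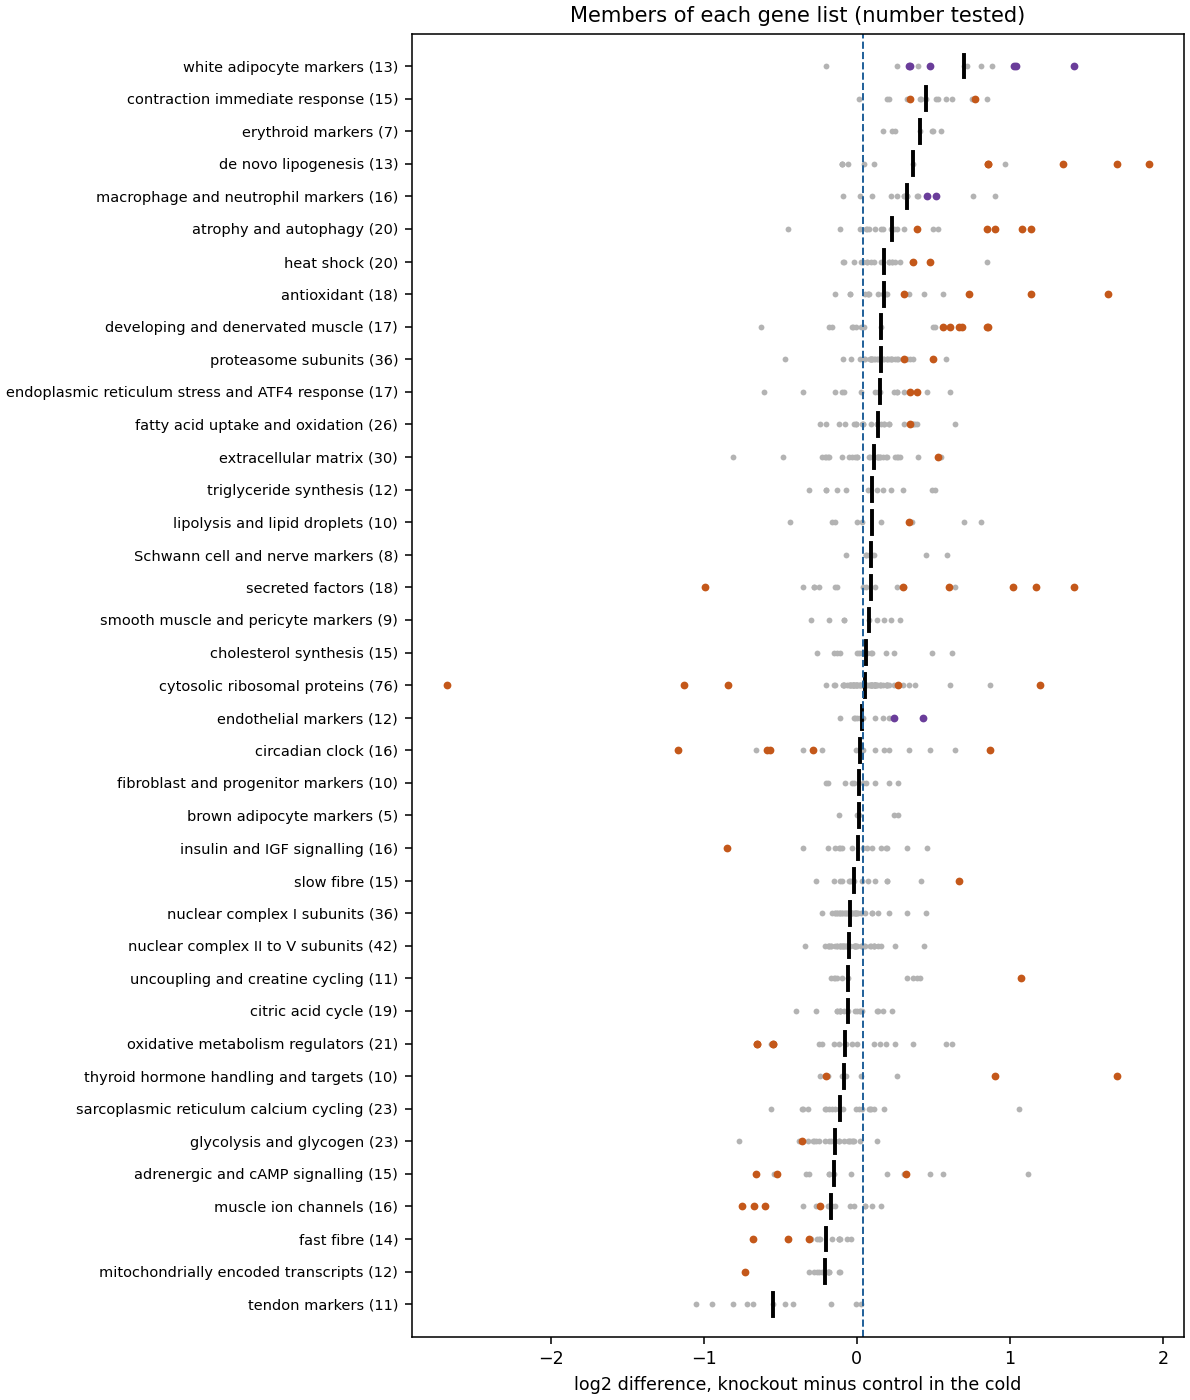
Log2 difference (knockout minus control in the cold, horizontal axis) of the tested members of each gene list (rows, number tested in parentheses). Grey points are members at an unadjusted p of 0.05 or above, orange (pathways) and purple (cell type markers) are below it, black bars are list medians and the dashed line is the median over all genes, 0.037; medians run from -0.55 for tendon markers to 0.70 for white adipocyte markers.

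Hormone and signalling lists held some members at an unadjusted p under 0.05, and only Ntf4 among them passed the adjusted threshold. Of 18 secreted factors 5 were higher and 1, Ntf4, was lower; of 15 adrenergic and cAMP genes 1 was higher and 2 were lower; and of 10 thyroid hormone genes 2 were higher and 1 was lower. These are 33.3%, 20% and 30% of the lists, beside 6.28% of all genes, and the list medians were 0.089, -0.15 and -0.087. As the lists were chosen with earlier results known, these shares do not test enrichment. Agt, the angiotensin precursor, had 5.77, 10.8 and 16.4 CPM in controls and 11.6, 20.9 and 39.4 CPM in knockouts, and 6 of 8 knockouts were above every control (1.02 ± 0.32, adjusted p = 0.576). Follistatin, Fst, which binds myostatin, differed by 0.60 ± 0.22. Tbc1d4, a brake on insulin-stimulated glucose transport, had 3.58, 8.68 and 17.8 CPM in controls and 2.71, 3.99 and 11.4 CPM in knockouts (-0.85 ± 0.29, adjusted p = 0.620). Crym, a cytosolic thyroid hormone binding protein, differed by 0.90 ± 0.37, but knockout 25 was at 183 CPM and the other 7 knockouts between 9.12 and 43.1 CPM; without that animal the difference was 0.10. The thyroid hormone receptor Thrb differed by -0.20 ± 0.10. Adenylyl cyclase Adcy9 differed by -0.52 ± 0.19 and the protein kinase A regulatory subunit Prkar2a by -0.66 ± 0.32. Of 16 insulin and IGF genes Tbc1d4 alone was at an unadjusted p under 0.05, which is 6.25% of the list, and the median was 0.0054. The lists of lipolysis, extracellular matrix and endoplasmic reticulum stress had 10, 30 and 17 tested members, with medians of 0.10, 0.11 and 0.15. At an unadjusted p under 0.05 they had 1, 1 and 2 higher members and 0 lower ones. These are 10%, 3.33% and 11.8% of the lists, beside 6.28% of all genes. The 19 citric acid cycle genes had a median of -0.06 with 0 at an unadjusted p under 0.05 in edgeR.

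Markers of other cell types in the muscle were examined for a shift in composition. Macrophage and neutrophil markers had a positive sign in 15 of 16, beside 57.3% of all genes. Their median was 0.33 in the cold and 0.37 at room temperature. In the cold they summed to 285 to 491 CPM in controls and 365 to 555 CPM in knockouts. Tendon markers had a median of -0.55 with 10 of 11 negative and 0 at an unadjusted p under 0.05 in edgeR, and their sum ran from 146 to 652 CPM in controls and from 162 to 454 CPM in knockouts. Erythroid genes had a positive sign in 7 of 7 (median 0.41, 0.23 without knockout 31). Endothelial, fibroblast, Schwann cell, smooth muscle and brown adipocyte markers had medians between 0.012 and 0.092. The 5 listed lymphocyte markers did not reach the count for testing.

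The cold and room temperature comparisons used different animals and shared no control. At room temperature 0 genes passed the adjusted threshold in edgeR and 712 (7.06%) were at an unadjusted p under 0.05; DESeq2 called 1. Of the 633 genes at an unadjusted p under 0.05 in the cold, 291 (46%) had the same sign at room temperature, beside 46.5% of all genes tested. Both comparisons held 73 genes at that level, which is 11.5% of the cold list and 10.3% of the room temperature list, and 40 of them had the same direction. Nqo1, Runx1 and Cdkn1a were among those 40, and so were, singled out after their values were seen, the phosphatase subunit Ppp2r3a (-0.34 and -0.27), the endothelin receptor Ednra (-0.89 and -0.67), the macrophage receptor Cd163 (0.46 and 0.43) and the unnamed gene ENSRNOG00000050946 (1.11 and 0.76), with the cold difference first.

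The interaction tested the difference between these comparisons directly, and 0 genes passed in edgeR, with 737 (7.31%) at an unadjusted p under 0.05. DESeq2 called Bhlhe41, and limma voom called it with 3 others. Scd (2.67, unadjusted p = 0.00576), Thrsp, Acly (1.04, unadjusted p = 0.00189), Trim63 (1.41, unadjusted p = 0.00461) and Tigd4 (-1.80, unadjusted p = 5.49e-04) were among the named genes with an unadjusted interaction p under 0.05. Tigd4 had 1.41, 1.75 and 2.93 CPM in cold controls and 0.201, 0.502 and 1.43 CPM in cold knockouts, with 7 of 8 knockouts below every control, and rested on 2 to 16 counts in the knockouts (-1.39 ± 0.33, adjusted p = 0.242).

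**Figure D5:**
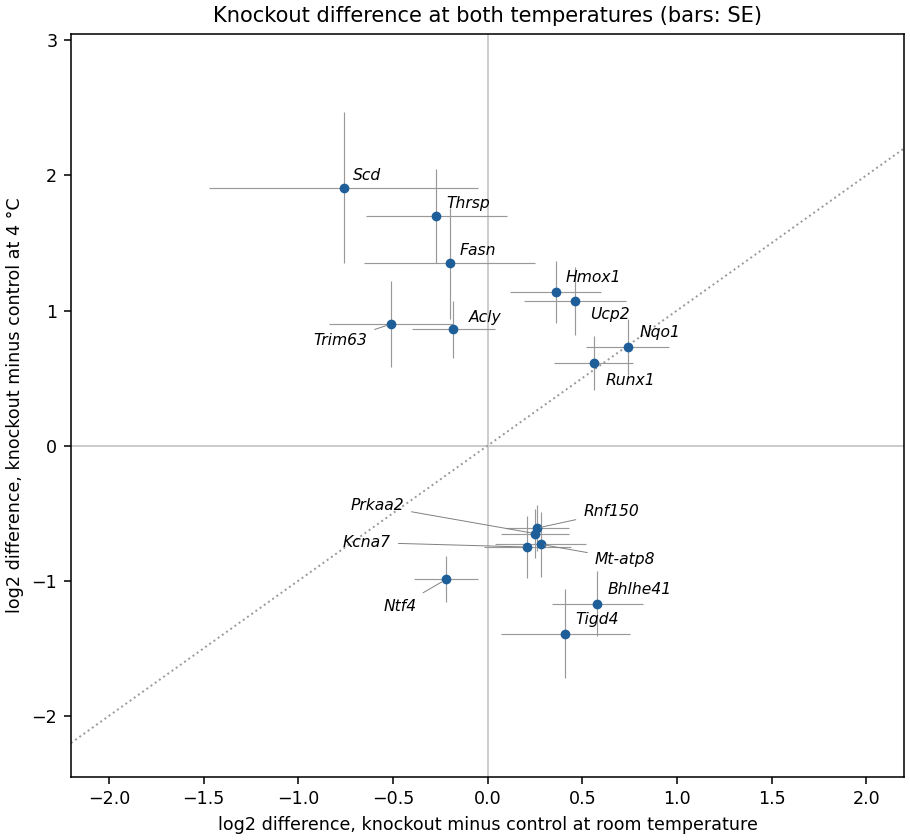
Knockout minus control log2 difference at room temperature (horizontal axis, 8 controls and 7 knockouts) against that at 4 °C (vertical axis, 8 and 8 animals) for 16 named genes, with SE bars; the dotted line marks equal differences. Nqo1 and Runx1 lie near that line, while Scd, Thrsp, Fasn, Acly, Trim63 and Bhlhe41 have opposite signs at the 2 temperatures.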

How the data were processed

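Gastrocnemius RNA of 31 rats was sequenced as 3′ tag libraries. The deposited raw table holds counts of reads per gene made by the authors; a second deposited table holds normalized signal, in which every value was the count over a constant of its library (largest relative deviation 5.23e-10), and it was used for gene symbols only. The submitters' processing notes name Rnor 6.0 and DESeq2 1.22.2, without their roles. The aligner, the counting tool and its use of strand were not given in the sources used here. No gene in the table had fewer than 93 counts in all, and genes below that are not analysed here. The deposited table named 10285 identifiers and RefSeq (GRCr8), matched by Entrez number, another 101. No symbol was found for 903, and 50 shared one, so near-identical copies may share reads.

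Counts of all 31 libraries were fitted with edgeR 4.0.16 (R 4.3.3) by the quasi-likelihood test: TMM, filterByExpr (minimum count 10, minimum total 15), 1 mean per group, 27 residual degrees of freedom, Benjamini-Hochberg over 10082 genes, threshold 0.05. Tests are two-sided; SE is the log2 difference over the square root of F. The 40 gene lists were described by counts and medians, not tested. The rule named genes called in the cold, at both temperatures or in the interaction, the 10 smallest p-values with a symbol, the 3 smallest of each list and 23 fixed genes (Ucp1, Atp2a1 and Fgf21 not tested). Further list members, neighbours and unnamed identifiers were chosen after their values were seen. The members, lists and rules were chosen with earlier results of these data known. Within-group correlations used log2 levels with a prior count of 2. Over 56 pairs of libraries of one cold group, the smallest ratio of chi-square to its degrees of freedom was 9.94, so none of these pairs agreed within sampling noise; other pairs were not compared. Nothing says that animals came from separate litters, and p-values measure the spread between these animals. Alternatives were RLE scaling, DESeq2 1.42.0, limma 3.58.1 (voom with quality weights), other filters, the first principal component as a covariate, fewer libraries and leaving out each cold library. Scripts were tested on simulated data. Labels name no batch, litter or cage, animal numbers run in blocks by group, and a batch that followed them cannot be told apart from genotype. The lists of denervation, atrophy and lipogenesis share some genes with other lists.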

Additional observations from a re-analysis of the deposited data

Results flagged for a closer look

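In 54 groups of log2 levels examined (the fixed genes and the 10 with the smallest p, in each cold group), 4 held an animal set apart from the other 7 by a gap of more than 0.526 of the group's range; about 1 in 20 groups would be marked by chance. Prkaa2, the kinase subunit, was 20.1 CPM in cold control 16 and 28.2 to 35.1 CPM in the other controls. Pdk4, the pyruvate dehydrogenase kinase, was 0.223 CPM in the same animal and 1.21 to 3.23 CPM in the others. Mss51, the mitochondrial protein of fast muscle, was 27.4 CPM in cold knockout 29 and 79.9 to 184 CPM in the other knockouts. The calcium pump Atp2a2 was 421 CPM in cold knockout 31 and 897 to 1601 CPM in the others.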

How the results depend on the processing

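No paired analysis was possible because each animal carries its own number. The count of genes called in the cold was 1; it was 6 with DESeq2, 8 with the first principal axis as covariate, 4 without room temperature controls 1 and 2, 0 with the 16 cold libraries alone, 0 with a mean of at least 5 CPM (which removes Ntf4 by construction), 0 without the 7 libraries lowest on that axis (chosen after seeing the data) and 0 to 3 with single cold libraries left out. Bhlhe41, Hmox1 and Thrsp were called with DESeq2, with the covariate and without room temperature controls 1 and 2; limma voom called Tigd4 and gave Ntf4 an adjusted p of 0.0939. The room temperature count of 0 became 1 with DESeq2. The interaction count of 0 became 1 with DESeq2 and 4 with limma voom. The settings with 0 calls held 580, 440 and 874 genes at an unadjusted p under 0.05 in edgeR, in that order. The difference in total count per library was 0.684 to 1.29 M with single libraries left out, the upper end without cold knockout 27 (exact permutation p = 0.0451). Signs reversed for Crym without the 7 libraries (-0.048), for Cnn1 with limma voom (-0.15), without the 7 (-0.16) and in single omissions (-0.07 to 0.41), and for Myh3 with limma voom (0.12) and in single omissions (-0.19 to 0.50); the cause was not tested. Depth limits genes at about 2 CPM, which rest on few counts (12 to 38 for Ntf4).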

Other observations

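Genes near Ucp1 were examined in the RefSeq order of assembly GRCr8. Rnf150, a ring finger gene and the nearest tested coding gene after Ucp1, had 16.4 ± 4.55 CPM in cold controls and 10.8 ± 2.56 CPM in cold knockouts (SD, n = 8 each). Its difference was -0.61 ± 0.17 (SE; unadjusted p = 0.00113 and adjusted p = 0.575 in edgeR) in the cold and 0.26 at room temperature. On the other side the nearest tested coding gene, Scoc, differed by -0.073 in the cold and the next, Ndufb7, by 0.028. Tecr, an enzyme of very long chain fatty acid synthesis beyond these, differed by -0.34 in the cold and -0.30 at room temperature. Gipc1, farther out on that side, had the opposite sign in the cold, 0.37. The other tested genes among the nearest 5 on each side lay between -0.12 and 0.31 in the cold. On the chromosome of Ucp1, 24 of 281 tested genes (8.54%) were at an unadjusted p under 0.05 in the cold, beside 556 of 9063 (6.13%) on other chromosomes; at room temperature the shares were 9.96% and 6.91%. Hmox1, Nqo1, Rnf150 and Nf1x, named as in the deposited table, are on that chromosome and among the 30 genes with the smallest p in the cold. For comparison, 281 of the tested genes with a known position were on that chromosome and 9063 on others. Whether it holds more of the 30 than its share was not tested.

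Cytosolic ribosomal protein genes had a median of 0.056 over 76 tested in the cold, with 2 higher and 3 lower at an unadjusted p under 0.05 in edgeR. That share, 6.58% of the list, was near the 6.28% of all genes. Of these 5, Rpl7l1 differed by -0.84 and Rpl3 by 0.27, and the other 3 were entries of Rpl30 and a related copy, whose reads may be assigned to either: Rpl30 ENSRNOG00000032825 differed by -1.13 in the cold and -1.16 at room temperature, Rpl30 ENSRNOG00000005975 by 1.20 and 0.41, and Rpl30l1 by -2.68 and -2.33.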
